A study of Mus musculus with 13 samples.

Results

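The respiratory chain and mitochondrial pyruvate genes were read out in the lower incisors of male mice aged 5 days (P5). Members were the protein-coding rows of the count table whose symbols start with Nduf, Uqcr, Atp5, Sdh (a to d, and af), Cox followed by a digit, mt-Nd, mt-Co, mt-Atp or mt-Cyt, together with Cycs, Mpc1 and Mpc2. The rule found 116 genes of 34709 in the table, of which 109 are nuclear and 7 lie in the mitochondrial genome. A minimum level kept 17837 genes for testing, among them 107 nuclear members and all 7 mitochondrial ones. The subunits Cox7b2 and Cox8c fell under that minimum. The mitochondrial members were mt-Nd1, mt-Nd2, mt-Nd4, mt-Nd5, mt-Nd6, mt-Cytb and mt-Co1. No mt-Atp row and no other mt-Co or mt-Nd row of the count table matched the rule. Sums, shares and counts over these 7 members thus leave out the other protein genes of the mitochondrial genome.

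The series compared 5 control libraries, described as wild type, with 3 VDRgem and 5 VDR-null libraries, and the labels name no treatment in any group. VDRgem is a vitamin D receptor known to answer synthetic gemini ligands but not the natural hormone, while VDR-null means that no functional receptor is made. The labels give no strain, allele, litter or batch. A p-value thus weighs a group difference against the spread between these libraries, and it cannot speak for the spread between litters. Libraries are numbered within a group in accession order, and a number pairs nothing. Total counts ran from 20405188 in control 2 to 87783466 in VDRgem 3. Levels are in CPM, the read count scaled to a fixed library size, after TMM scaling. The enamel matrix gene Amelx was at 5525 to 39379 CPM and the dentin matrix gene Dspp at 14519 to 32280.5 CPM over all libraries. The targeted gene Vdr stood at 142 to 180 CPM in controls, 107 to 205 CPM in VDRgem libraries, and 204 to 281 CPM in the libraries labelled VDR-null. Reads are summed over a whole gene here, so an altered exon of Vdr would not be seen and these levels do not check the labels.

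The libraries differed in ways that moved with some results below. Summed oral keratinocyte markers were 17328, 3999 and 325 CPM in VDRgem 1, 2 and 3, while controls held 32.3 to 556 CPM and VDR-null libraries 27.7 to 138 CPM, and 12 of the 13 markers tested were called higher in VDRgem than in control. All 9 cell cycle genes tested were called lower in VDRgem. Skeletal muscle markers summed to 808 CPM in VDR-null 3 and 311 CPM in VDRgem 1, against 11.4 to 85.6 CPM in the remaining libraries. Transcripts rich in GC were low relative to GC-poor ones in most VDR-null libraries. This tilt, the log2 level against the control mean in the highest of 4 GC classes minus that in the lowest, was -0.67, -0.45, -0.07, -0.21 and -0.46 in VDR-null 1 to 5, -0.17 to 0.14 in controls and 0.30, 0.16 and -0.17 in VDRgem 1 to 3. In bulk tissue, fewer cells of a type cannot be told apart from less RNA per cell.

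The respiratory chain passes electrons from NADH and succinate through complexes I and II, coenzyme Q, complex III, cytochrome c and complex IV to oxygen. Protons pumped on the way drive ATP synthase, complex V. Most subunits are encoded in the nucleus and a few in the mitochondrial genome, and assembly factors put the complexes together without staying in them. Pyruvate from glycolysis enters the matrix through a carrier built of Mpc1 and Mpc2. Enamel- and dentin-forming cells are secretory, and enamel-forming cells are known to be rich in mitochondria.

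Promoters were searched because many nuclear respiratory genes are known targets of the factors NRF1, GABP and YY1. RefSeq windows on GRCm38.p6, running from 250 bases before to 50 bases after a gene's start, were found for 88 of the 109 nuclear members. The NRF1-like letters GCGCATGCG were present in 12.5% of those genes and in 1.95% of all 27025 genes with a window. The YY1-like letters AAGATGGCG stood in 10.2% against 1.64%, and the ETS or GABP-like letters CCGGAAGT in 10.2% against 4.31%. The ERR-like letters TCAAGGTCA were found in 2.27% against 0.466%, in Atp5g3 and Sdhd. A VDR-like direct repeat with 3 bases between its parts was found in no member and in 0.044% of all genes, and its absence from a window of this length says nothing of the receptor. Both strands were searched, and the NRF1-like letters nearly read the same on either strand, so their matches can overlap themselves. These are matches of letters, not sites of binding, and the shares were not tested.

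Of the 9 members that were lower in VDR-null, 3 had a match, and their windows are printed here so that the letters can be seen, with the match in capitals and all sequences 5′ to 3′ along the gene. NRF1-like letters were in 11.1% of the 9, beside 12.5% of the 88 nuclear members with a window. ETS-like letters were in 22.2% beside 10.2%, and YY1-like letters in 11.1% beside 10.2%. A match is thus no trait particular to these 9. Cox16 (chr12:81485088-81485387, minus strand, the more upstream of its windows) held an ETS-like match on the opposite strand that begins 16 bases before the start. Uqcr11 (chr10:80406772-80407071, minus strand) held an ETS-like match beginning 66 bases and an NRF1-like match beginning 5 bases before the start. Ndufaf8 (chr11:120098684-120098983, plus strand) held a YY1-like match just after the start.
Cox16: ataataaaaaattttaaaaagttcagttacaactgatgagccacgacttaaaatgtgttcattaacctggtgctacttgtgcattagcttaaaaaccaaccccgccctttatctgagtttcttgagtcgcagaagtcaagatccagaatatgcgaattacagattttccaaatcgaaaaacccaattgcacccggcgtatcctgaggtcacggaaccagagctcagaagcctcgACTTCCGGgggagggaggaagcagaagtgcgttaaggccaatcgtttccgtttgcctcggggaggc
Uqcr11: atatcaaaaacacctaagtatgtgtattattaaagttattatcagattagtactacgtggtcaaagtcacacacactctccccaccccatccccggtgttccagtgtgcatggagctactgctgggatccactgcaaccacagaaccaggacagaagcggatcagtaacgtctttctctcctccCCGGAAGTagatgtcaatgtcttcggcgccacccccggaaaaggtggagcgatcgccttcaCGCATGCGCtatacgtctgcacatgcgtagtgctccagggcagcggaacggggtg
Ndufaf8: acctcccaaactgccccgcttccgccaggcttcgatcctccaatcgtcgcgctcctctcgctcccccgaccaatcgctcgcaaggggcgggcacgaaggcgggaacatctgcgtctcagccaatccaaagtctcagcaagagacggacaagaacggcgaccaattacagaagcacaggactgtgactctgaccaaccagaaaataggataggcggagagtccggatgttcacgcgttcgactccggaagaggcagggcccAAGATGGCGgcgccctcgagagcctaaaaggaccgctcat
No searched motif was found in the windows of the other 6, which were Mpc1, Uqcr10, Ndufa7, Ndufb6, Atp5e and Cox6b2.

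Levels in control incisors were compared between genes per kilobase of the principal transcript. Mitochondrial transcripts were far above nuclear ones, with a median of 789 CPM per kb over 7 genes against 41.3 CPM per kb over 109. Mt-Cytb, the cytochrome b of complex III, led with 2621 ± 260 CPM per kb (SD, n = 5), and mt-Nd6, a complex I subunit on the opposite strand from the rest, was lowest among them at 18.1 ± 5.14 CPM per kb. The highest nuclear member was Atp5b, the catalytic beta subunit of ATP synthase, at 395 ± 10.3 CPM per kb, followed by Cox4i1, the common isoform of a complex IV subunit, at 320 ± 18.5 and Atp5a1 at 274 CPM per kb. Assembly factors were low, with medians of 7.79 CPM per kb for complex I and 5.63 for complex IV, against 48.6 and 58.3 for the subunits of those complexes. Roles were set by gene symbol, so Ndufa4 and Ndufa4l2 are counted with the complex I subunits throughout.

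**Figure D1:**
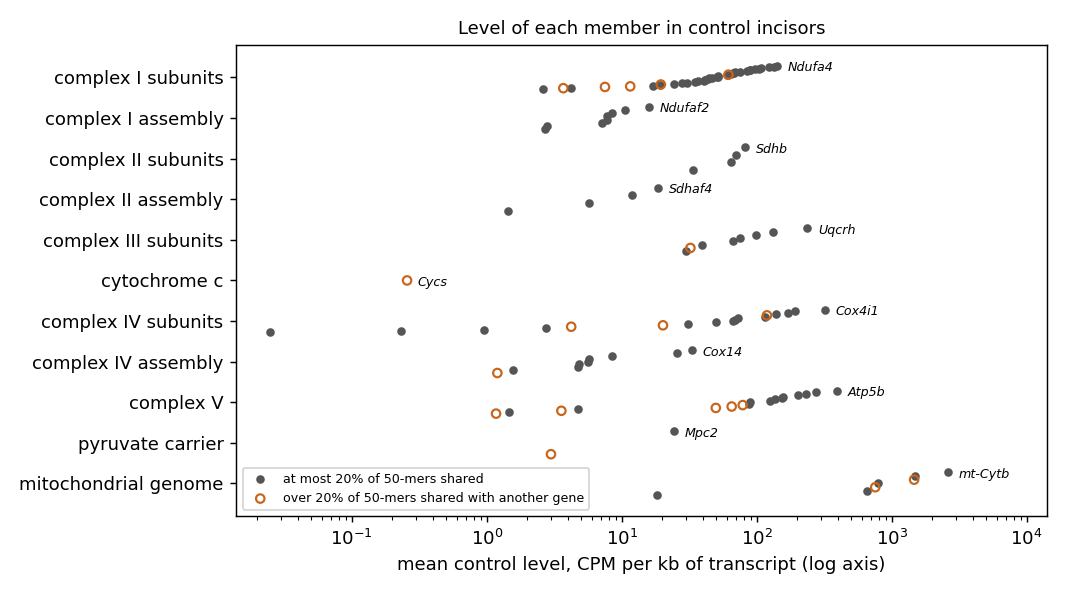
Mean level of each member in the 5 control libraries, in CPM per kb of transcript on a log axis, by role; 1 point is 1 gene and the highest gene of each role is named. Open points mark the genes with over 20% of their 50-base stretches shared with another gene, and they include Cycs at 0.257 CPM per kb. Roles follow gene symbols, so Ndufa4 and Ndufa4l2 are placed with the complex I subunits.

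Levels of members with near-identical copies depend on how shared reads were counted, which is not given in the sources used here. Of the 116 members, 19 share over 20% of their 50-base stretches with another annotated gene, often a processed pseudogene. Cycs, cytochrome c itself, was listed at 0.803 ± 0.0799 CPM in control and shares 28.2% of its stretches. Atp5g2, which encodes the same mature ring subunit of ATP synthase as Atp5g1, was at 0.857 ± 0.144 CPM and shares 87.4%. Levels of these genes are uncertain. Changes between groups use the same counting in every library, but that does not show whether a change lies in the gene or in its copy.

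Isoforms of single subunits showed which tissue versions the incisor carried. Cox4i1 stood at 245 ± 14.1 CPM in control, and its partner Cox4i2, known from lung and hypoxic cells, at 50.6 ± 7.44 CPM. The muscle forms Cox6a2, Cox7a1 and Cox8b were at 0.649 ± 0.284, 1.09 ± 0.158 and 0.084 ± 0.124 CPM in control, against 97.2 ± 12.7 for Cox6a1, 75.8 ± 2.77 for Cox7a2 and 75.9 ± 8.09 for Cox8a. VDR-null 3 stood apart in these forms, with 5.37 CPM of Cox6a2, 3.47 of Cox7a1 and 2.30 of Cox8b, against at most 0.659, 0.960 and 0.229 CPM in the other 4 VDR-null libraries. The same library had the highest summed muscle markers. None of the 3 muscle forms was called by edgeR with all libraries. Without VDR-null 3, Cox6a2 was called in VDRgem against control and against VDR-null and Cox7a1 in VDRgem against VDR-null, limma-voom called Cox6a2 between the mutants, and with only the groups compared it was called in VDRgem against control.

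The comparison of VDRgem with control asks what differs in incisors whose receptor is blind to the natural hormone. Few members differed by the test. Of 107 nuclear members tested, 1 was called higher (0.935%) and 1 lower (0.935%), against 4.80% and 3.82% of all genes. The median log2 fold change of nuclear members was -0.00, against 0.00 for all genes. Complex II subunits ran from -0.15 to 0.01 and complex III subunits from -0.02 to 0.18, with none called.

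Ndufa4l2, a paralog of Ndufa4 known as a hypoxia-induced brake on complex I, rose in VDRgem. Its levels were 17.7, 15.4, 13.7, 16.6 and 16.3 CPM in control 1 to 5, 95.8, 45.1 and 28.4 CPM in VDRgem 1 to 3, and 10.1, 15.5, 18.3, 14.9 and 12.4 CPM in VDR-null 1 to 5. Every VDRgem library lay above every other library, and VDRgem 1 was highest. The log2 fold change against control was 1.82 (SE 0.28, adjusted p = 0.0076 in edgeR's quasi-likelihood test). It was 1.19 (adjusted p = 0.0238) without VDRgem 1 and 0.82 without VDRgem 1 and 2, where 1 VDRgem library was left. With the keratinocyte level as a covariate it was 0.50 (adjusted p = 0.473), and 0 of 17837 genes were called in that fit. The keratinocyte markers followed the same order over the 3 VDRgem libraries. So did the summed muscle markers (311, 70.3 and 47.1 CPM) and the GC tilt (0.30, 0.16 and -0.17). With the muscle level as a covariate the call was lost too, and 3 genes were called higher and 12 lower in that fit. With the GC offset it held, at a log2 fold change of 1.63. The part of each in the result was not tested. Ndufa4l2 overlaps Shmt2 on the opposite strand, which stood at 45.4 to 60.0 CPM over the control and VDRgem libraries. Its paralog Ndufa4, now known as a subunit of complex IV, stood at 78.5 ± 4.26 CPM in VDRgem (n = 3) and 86.1 ± 4.46 in control (n = 5), the log2 fold change being -0.13 (SE 0.08, adjusted p = 0.355).

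Cox6b2, a complex IV subunit best known as the testis form of Cox6b, fell in both mutants. Its levels were 19.56, 20.03, 16.51, 17.96 and 16.46 CPM in control 1 to 5, 11.55, 12.59 and 10.25 CPM in VDRgem 1 to 3, and 14.8, 10.7, 12.3, 12.6 and 14.3 CPM in VDR-null 1 to 5. All 8 mutant libraries lay below all 5 controls. The log2 fold change was -0.66 (SE 0.12, adjusted p = 0.0106) in VDRgem and -0.48 (SE 0.10, adjusted p = 0.0423) in VDR-null, and both comparisons use the same controls. In VDRgem the adjusted p was 0.0685 without VDRgem 1. In VDR-null it was 0.218 with an offset for GC content. The common form Cox6b1 stood at 119 ± 6.46, 122 ± 11.9 and 109 ± 11.7 CPM in control, VDRgem and VDR-null and was not called.

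Of the 7 mitochondrial members, mt-Nd6 was the one called in VDRgem, with 10.46, 5.21, 10.36, 12.3 and 8.71 CPM in control 1 to 5 and 16.2, 14.6 and 19.8 CPM in VDRgem 1 to 3. The groups did not overlap, and 14.3% of 7 members stands beside the 4.80% of all genes called higher. The log2 fold change was 0.84 (SE 0.22, adjusted p = 0.0347). The adjusted p was between 0.0515 and 0.129 when VDRgem 1, 2 or 3 or control 1, 3 or 5 was left out, so the call rests on each of those libraries. Mt-Nd6 is encoded opposite mt-Nd5 and overlaps its end, from 13552 to 13565 of the mitochondrial genome. The kit marks strand, but which strand setting the counting used is not stated in the labels.

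Of the other mitochondrial transcripts, mt-Cytb and mt-Co1 were highest in VDRgem 3 among these groups. Mt-Cytb was at 2516, 3091, 3326, 3000 and 3061 CPM in control 1 to 5 and at 3164, 3520 and 5050 CPM in VDRgem 1 to 3. Mt-Co1, the catalytic core of complex IV, was at 1903, 2499, 2364, 2327 and 2232 CPM in controls and at 2199, 2324 and 3283 CPM in VDRgem. All 7 members had a positive log2 fold change against control, with a median of 0.25, and that median was 0.02 without VDRgem 3. Summed nuclear members moved the other way in that library, at 6066 CPM, while controls held 6341 to 6855 CPM and VDRgem 1 and 2 held 7182 and 6719 CPM.

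**Figure D2:**
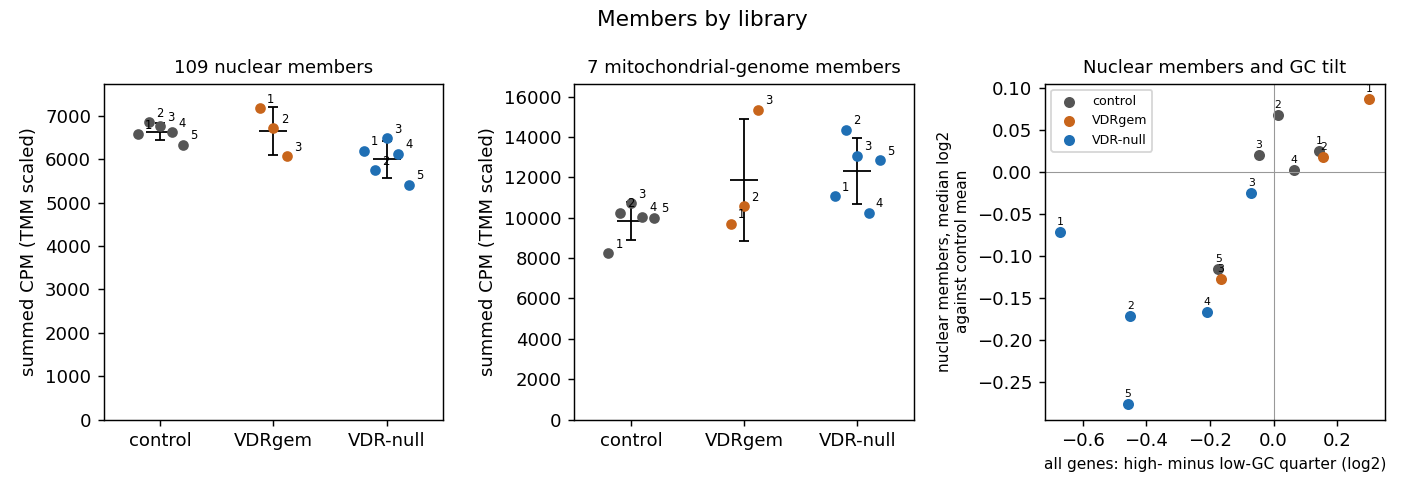
Summed level of the 109 nuclear members (left) and of the 7 mitochondrial-genome members (middle) in CPM by library, with points numbered by library and bars for the mean and SD. On the right, the median log2 level of the nuclear members against the control mean is plotted against the GC tilt of all genes; VDR-null 1, 2 and 5 have the lowest tilts, at -0.67 to -0.45.

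The comparison of VDR-null with control asks what differs when the receptor is absent. Nuclear members were lower on the whole, and mitochondrial ones higher without a call. Of 107 nuclear members, 9 were called lower (8.41%), against 0.656% of all genes, and 0 were called higher, against 0.678% of all genes. With DESeq2, 28 were called lower (26.2%, against 4.83% of all genes) and 2 higher (1.87%, against 4.40%). At an unadjusted p under 0.05 in edgeR, 45 members passed in either direction, beside 22.8% of all genes. The median log2 fold change was -0.13 against 0.01 for all genes, and 85 of 107 values were negative. By role, 2 of 38 complex I subunits, 1 of 8 complex I assembly factors, 2 of 8 complex III subunits, 1 of 16 tested complex IV subunits, 1 of 9 complex IV assembly factors, 1 of 17 complex V genes and 1 of 2 pyruvate carrier genes were called lower. The 38 complex I subunits include Ndufa4 and Ndufa4l2 by symbol. No complex II gene was called by edgeR.

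**Figure D3:**
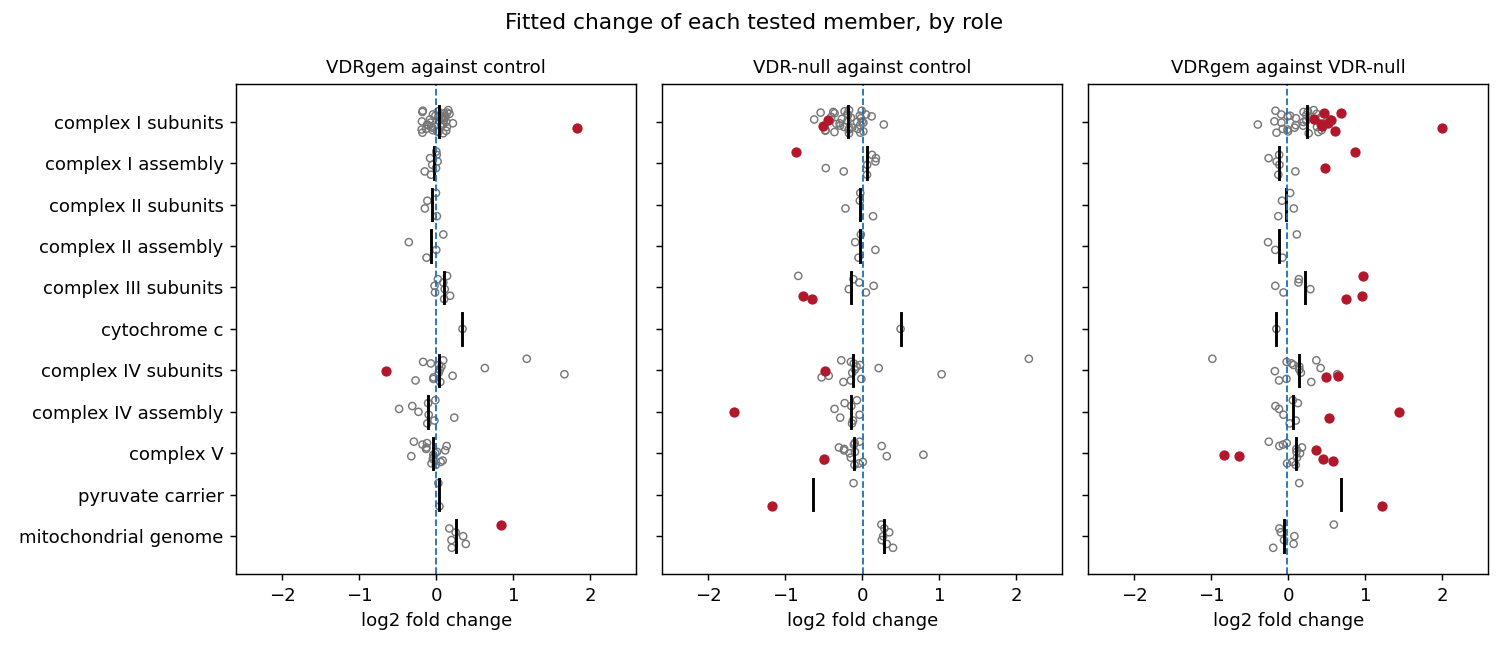
Log2 fold change of each tested member by role in the 3 comparisons; filled points passed an adjusted p of 0.05 in edgeR's quasi-likelihood test, open points did not, black bars are role medians and the dashed line is the median of all genes. Most subunits of complexes I, III and IV lie left of the line in VDR-null against control.

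Cox16, an assembly factor that helps mature a core subunit of complex IV, had the largest fall. It was at 2.94, 2.98, 2.45, 2.09 and 1.58 CPM in control 1 to 5 and at 0.645, 0.573, 0.929, 0.796 and 0.865 CPM in VDR-null 1 to 5, while VDRgem 1 to 3 had 2.32, 2.16 and 1.64 CPM. All VDR-null libraries lay below all others. The log2 fold change was -1.66 (SE 0.22, adjusted p = 0.00697) against control, and VDRgem was at -0.23 (SE 0.24, adjusted p = 0.601). The call held in 13 of 13 fits that left out 1 library, and with offsets for GC content (log2 fold change -1.82, adjusted p = 0.0122) and for GC and length together (-1.80, adjusted p = 0.0103). It was lost without VDR-null 1, 2 and 5, where the log2 fold change was -1.48 (adjusted p = 0.156). That fit called 2 genes higher and 0 lower of the 18031 tested.

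Cox16 lies at chr12:81359026-81485127 (mm10, minus strand) and shares 88.7% of its 50-base stretches with Gm20498, a gene model on the same strand that overlaps it. Gm20498 was at 0.0194 to 0.153 CPM in every library, under the level needed for testing. How reads in the shared stretches were assigned is not stated in the labels. Synj2bp, an outer mitochondrial membrane protein gene next to Cox16, was at 18.5 to 22.2 CPM in control and 23.9 to 28.6 CPM in VDR-null, the log2 fold change being 0.36 (SE 0.09, adjusted p = 0.0525). Every VDR-null library lay above every control for Synj2bp, although it missed the threshold.

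Mpc1, a required part of the pyruvate carrier, fell as well. Its levels were 3.97, 2.37, 2.83, 2.80 and 2.36 CPM in control 1 to 5, 3.01, 3.17 and 2.66 CPM in VDRgem 1 to 3, and 0.688, 1.31, 1.05, 1.75 and 1.53 CPM in VDR-null 1 to 5. VDR-null libraries lay below all others, and VDRgem lay within the control range. The log2 fold change was -1.18 (SE 0.23, adjusted p = 0.0381) in VDR-null and 0.04 (SE 0.26, adjusted p = 0.949) in VDRgem. The call was lost without control 1, 2, 3 or 4, VDRgem 2, or VDR-null 1 or 2, at adjusted p from 0.058 to 0.10, and with the GC offset at 0.0519, while the log2 fold change stayed between -1.33 and -1.01 over all alternatives. Mpc1 lies at chr17:8282904-8297661 and shares 26.4% of its stretches with 2 pseudogenes. An antisense gene, 4930506C21Rik, overlaps it and stood at 0.0763 to 0.421 CPM. Its partner Mpc2 was at 25.03 ± 3.34 CPM in control and 23.1 ± 1.86 CPM in VDR-null, the log2 fold change being -0.11 (SE 0.10, adjusted p = 0.506).

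In complex III, the small subunits Uqcr11 and Uqcr10 fell and Uqcrq was just outside the threshold. Uqcr11 was at 35.1, 41.0, 32.5, 32.8 and 26.2 CPM in control 1 to 5 and 13.8, 18.1, 27.1, 22.1 and 17.1 CPM in VDR-null 1 to 5, with a change of -0.77 on the log2 scale (SE 0.18, adjusted p = 0.0486). Uqcr10 was at 59.8, 63.3, 59.2, 57.2 and 45.7 CPM against 28.3, 31.8, 46.7, 40.4 and 34.5 CPM, with -0.65 (SE 0.13, adjusted p = 0.0398). In both genes VDR-null 3 was the highest VDR-null library and lay above control 5, the lowest control, so the groups overlapped by those libraries. Uqcrq was at 54.2, 51.0, 48.1, 40.3 and 34.1 CPM against 17.0, 20.5, 35.1, 30.3 and 25.2 CPM, the log2 fold change being -0.83 (SE 0.19, adjusted p = 0.0505). Uqcrh, the hinge subunit and the highest of the role per length, was at 129 ± 8.47 and 119 ± 15.6 CPM and was not called.

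In complex I, the accessory subunits Ndufa7 and Ndufb6 and the assembly factor Ndufaf8 fell. Ndufa7 was at 61.1, 55.9, 55.2, 54.8 and 46.4 CPM in control 1 to 5 and 30.8, 36.6, 45.3, 41.5 and 38.4 CPM in VDR-null 1 to 5, with a change of -0.51 on the log2 scale (SE 0.11, adjusted p = 0.0458). Ndufb6 was at 24.9, 23.6, 24.6, 22.4 and 18.7 CPM against 16.3, 15.2, 18.6, 17.9 and 15.6 CPM, with -0.45 (SE 0.10, adjusted p = 0.042). For both genes every VDR-null library lay below every control. Ndufaf8 was at 6.55, 6.53, 5.93, 5.31 and 3.52 CPM against 2.68, 2.85, 3.999, 3.03 and 2.77 CPM, with -0.86 (SE 0.20, adjusted p = 0.049), and VDR-null 3 lay above control 5. In complex V, Atp5e, the epsilon subunit of the central stalk, was at 105, 109, 95.8, 96.7 and 81.2 CPM against 66.4, 67.9, 77.7, 70.8 and 62.3 CPM, with -0.50 (SE 0.10, adjusted p = 0.0346) and no overlap. Over the 9 calls, the groups were apart for 6 genes (66.7%, against 86.3% of the 117 genes called lower) and overlapped for 3.

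**Figure D4:**
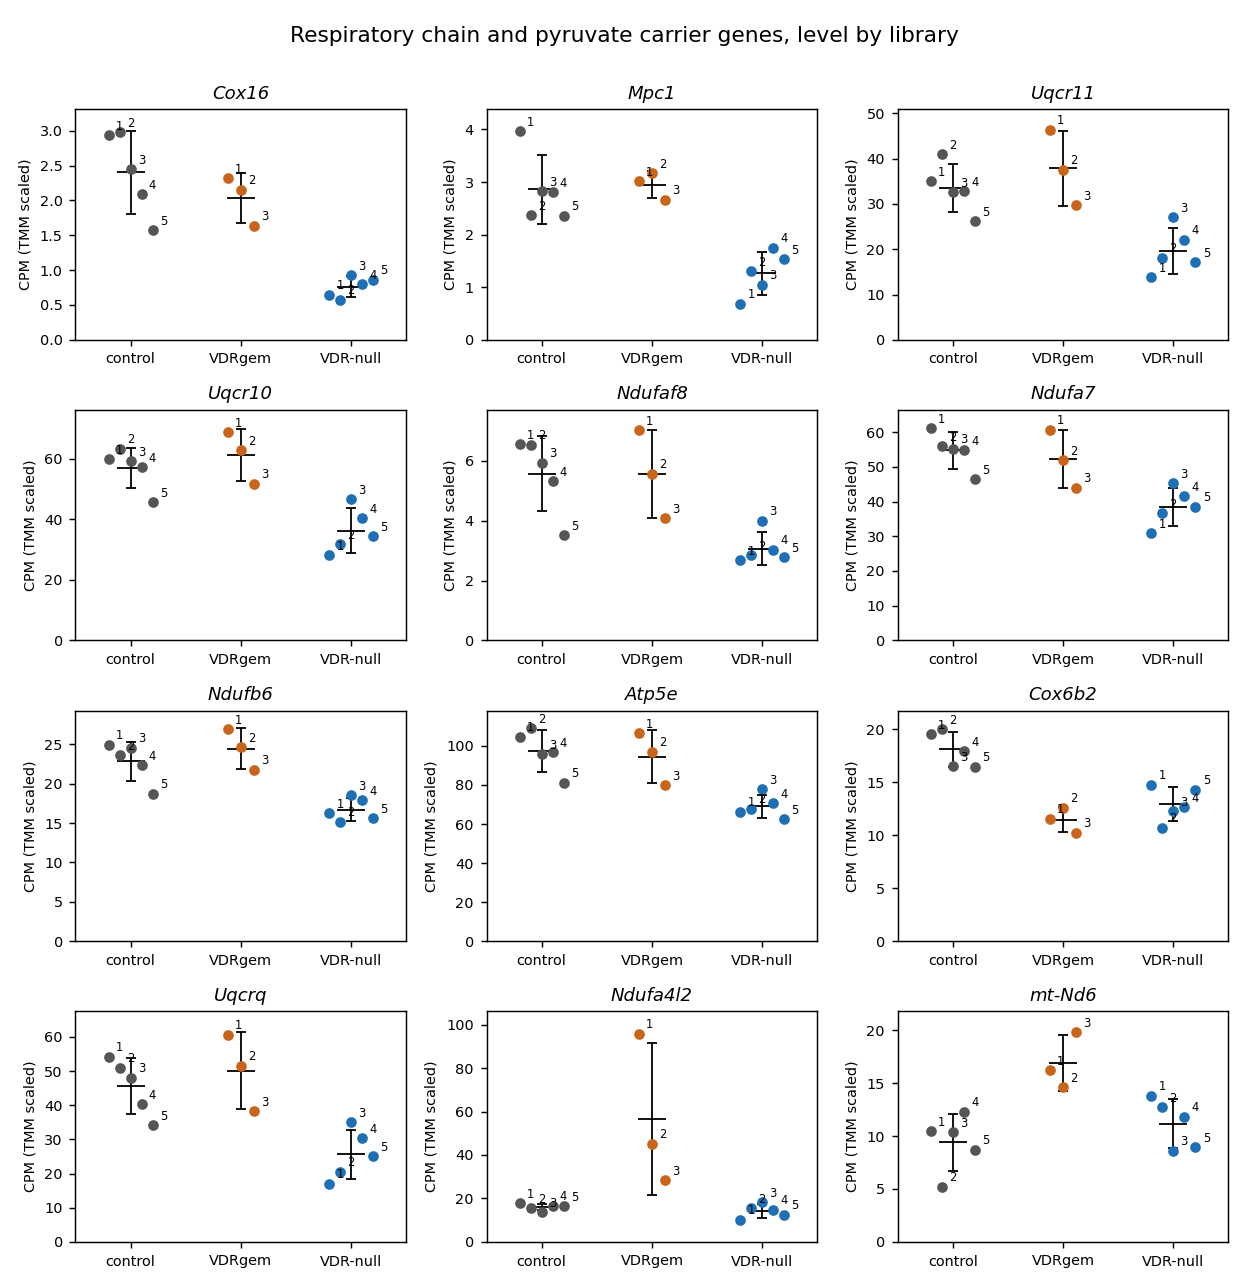
Level of 12 members in CPM by library (linear axes from 0; points numbered by library, bars for mean and SD). VDR-null libraries are low for the complex III genes, Cox16 and Mpc1, VDRgem libraries are high for Ndufa4l2, and all mutants are low for Cox6b2.

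More members lay close to the threshold. At an adjusted p under 0.10, 26 nuclear members passed, 25 lower, beside 4.64% of all genes, and 1 higher, beside 4.37%. Among them Ndufs7, an iron-sulfur subunit of complex I on the path of electrons to coenzyme Q, was at 38.5, 36.6, 34.2, 32.5 and 25.8 CPM in control 1 to 5 and 17.8, 20.03, 31.2, 26.2 and 20.1 CPM in VDR-null 1 to 5 (log2 fold change -0.54, SE 0.16, adjusted p = 0.0793). Atp5d, the delta subunit that sits beside epsilon in the stalk of ATP synthase, was at 137, 131, 128, 128 and 107 CPM against 73.7, 84.4, 109, 102 and 77.9 CPM (log2 fold change -0.50, SE 0.13, adjusted p = 0.0577). In both, VDR-null 3 lay above control 5, as in the complex III genes. Cox5b, a zinc-binding subunit of complex IV, was at 19.0, 18.2, 17.5, 19.3 and 13.4 CPM against 12.8, 11.4, 13.7, 12.1 and 10.5 CPM (log2 fold change -0.53, SE 0.13, adjusted p = 0.056). The member on the higher side was Atp5g2 (log2 fold change 0.79, SE 0.21, adjusted p = 0.0628).

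Several high members did not differ by the test. Atp5b was at 757 ± 19.7 CPM in control and 734 ± 73.8 in VDR-null, the log2 fold change being -0.05 (SE 0.08, adjusted p = 0.772). Sdha, the flavoprotein of complex II, was at 204 ± 5.94 and 224 ± 10.1 CPM, with 0.14 (SE 0.05, adjusted p = 0.153), and Sdhb, its iron-sulfur partner, at 93.7 ± 6.82 and 80.4 ± 6.27 CPM, with -0.22 (SE 0.07, adjusted p = 0.107). For Sdha every VDR-null library lay above every control, for Sdhb every one lay below, and DESeq2 called both. Cox4i1 was at 207 ± 24.4 CPM in VDR-null, with -0.25 (SE 0.09, adjusted p = 0.122).

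The lower members in VDR-null were mostly short and rich in GC. Outside that were Cox16 and Mpc1, and Ndufb6 with a GC content of 48.4%. Their median GC content was 55.3% and their median length 585 bases, against 50.4% and 977 bases for the 98 nuclear members not called. All 117 genes called lower in this comparison had a median GC content of 58.2%, and the 121 called higher 45.0%. The median log2 fold change of all genes was 0.16 in the lowest GC class and -0.22 in the highest, and that of nuclear members was -0.04 and -0.35. With an offset for the GC trend of each library, 2 members remained called lower, Cox16 and Uqcr10 (log2 fold change -0.51, adjusted p = 0.0477), against 0.0729% of all genes. With offsets for GC and length together 1 remained, Cox16. The median log2 fold change of nuclear members was -0.12 with the GC offset, -0.01 with the length offset and -0.07 with both. That of all genes was 0.03, 0.04 and 0.02 in the same fits. What part the tilt has in the falls was not tested beyond these offsets. Without VDR-null 1, 2 and 5, the libraries with the strongest tilt, 0 members were called and the median was -0.10. In that fit 2 of the 18031 genes tested were called higher and 0 lower, and the median of all genes was 0.00.

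**Figure D5:**
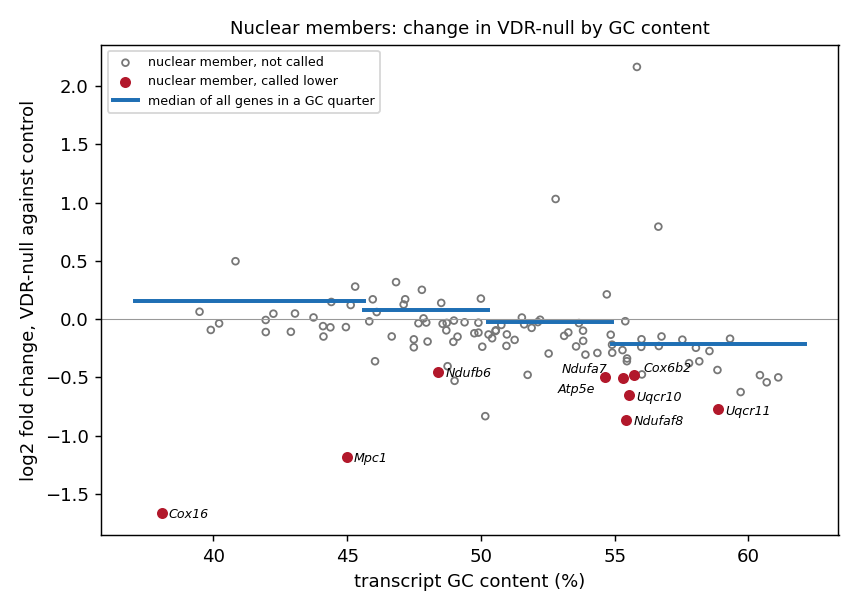
Log2 fold change of each nuclear member in VDR-null against control by the GC content of its principal transcript; filled points were called lower and blue lines are medians of all genes in 4 GC classes. Cox16 (GC content 38.1%) and Mpc1 (45.0%) lie far below the lines, and the median GC content of the called members is 55.3%.

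The count of 9 also depended on single libraries. It was 1, Cox16, without control 1, 2, 3 or 4, VDRgem 2, or VDR-null 1 or 2. Calls over all genes fell in the same fits, from 117 lower to between 1 and 18. The count was 3 without VDR-null 5, beside 0.338% of all genes called lower, and 23 without VDR-null 3, beside 1.68%. It was 18 without VDRgem 1 or VDRgem 3. Both of those fits had 17 lower, beside 2.02% and 2.2% of all genes, and 1 higher, beside 1.73% and 1.55%. A VDRgem library enters this comparison through the shared spread, the filter and the scaling. VDR-null 3 is the library with the highest muscle markers and the weakest GC tilt in its group.

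Mitochondrial transcripts had higher means in VDR-null, with 7 of 7 positive log2 fold changes, a median of 0.29 and 0 of 7 called, where 3 had an unadjusted p under 0.05 in edgeR and DESeq2 called 1, mt-Co1. Mt-Co1 was at 2598, 3614, 3281, 2432 and 2998 CPM in VDR-null 1 to 5, with a change of 0.40 on the log2 scale (SE 0.14, adjusted p = 0.113), and VDR-null 4 lay within the control range. Mt-Cytb was at 3492, 4303, 3986, 2976 and 3911 CPM, with 0.32 (SE 0.14, adjusted p = 0.195). These transcripts are poor in GC, with a median of 37.1%. Their median log2 fold change was 0.13 with the GC offset, against 0.03 for all genes. The complex I transcripts mt-Nd1, mt-Nd2, mt-Nd4 and mt-Nd5 had log2 fold changes of 0.25 to 0.35 in VDR-null, at adjusted p from 0.152 to 0.308. In each, VDR-null 2 held the highest or second highest level of its group and VDR-null 4 or VDR-null 1 the lowest. The 7 mitochondrial members made up 1.07% to 1.37% of the counts in VDR-null and 0.843% to 1.07% in control. Nuclear members made up 0.544% to 0.701% and 0.668% to 0.71%.

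Between the mutants, VDRgem against VDR-null, 22 nuclear members were called higher in VDRgem (20.6%, against 10.6% of all genes) and 2 lower (1.87%, against 8.18%). Of the 22, 13 had groups apart (59.1%, against 67.7% of the 1887 genes called higher) and 9 overlapped. The largest differences were Ndufa4l2 (log2 fold change 1.99), Cox16 (1.43), Mpc1 (1.22), Uqcrq (0.97), Uqcr11 (0.95) and Ndufaf8 (0.86), whose levels by library are given above. This comparison uses the same mutant libraries as those against control. Further subunits of complex I (Ndufa13, Ndufs7, Ndufb11, Ndufs6, Ndufb10 and Ndufb8) and of complexes IV and V (Cox6a1, Cox5b, Atp5d and Atp5j), and the assembly factors Ndufaf3 and Cox14, were higher by log2 fold changes of 0.33 to 0.68. Called members higher in VDRgem had a median GC content of 55.5%, and all 1887 genes called higher 56.3%.

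Among them, VDRgem 1 was the highest VDRgem library and VDRgem 3 the lowest for every member called higher here except Mpc1, where VDRgem 2 was highest. Ndufa13, a complex I subunit also known as a cell death regulator, was at 103, 93.3 and 75.5 CPM in VDRgem 1 to 3 and 42.7, 58.9, 78.8, 63.1 and 53.7 CPM in VDR-null 1 to 5, so VDR-null 3 lay above VDRgem 3 (log2 fold change 0.61, SE 0.16, adjusted p = 0.0209). Ndufb10, an accessory subunit of the membrane arm, was at 78.3, 69.7 and 60.9 CPM against 51.3, 52.3, 59.2, 51.0 and 44.8 CPM, with no overlap (log2 fold change 0.43, SE 0.10, adjusted p = 0.0125). Cox14, which guards a newly made core subunit of complex IV, was at 34.3, 26.7 and 23.1 CPM against 17.6, 19.8, 22.7, 19.5 and 18.1 CPM, also with no overlap (log2 fold change 0.52, SE 0.13, adjusted p = 0.0182). The median over the 107 nuclear members was 0.10, with 69 positive values, against -0.02 for all genes, and with the length offset it was -0.07 against -0.09 for all genes.

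The members called lower in VDRgem both encode the membrane ring subunit of ATP synthase. Atp5g1 was at 5.27, 5.81 and 5.33 CPM in VDRgem 1 to 3 and 9.53, 8.46, 8.81, 9.26 and 6.64 CPM in VDR-null 1 to 5, with 7.16, 7.62, 6.02, 6.98 and 6.57 CPM in control 1 to 5. Every VDRgem library lay below, and all but VDR-null 5 above, every control. The log2 fold change between the mutants was -0.64 (SE 0.13, adjusted p = 0.00774), and neither mutant differed from control by the test. Atp5g2 was at 0.556, 0.770 and 1.12 CPM in VDRgem and 1.75, 1.65, 1.33, 1.36 and 1.22 CPM in VDR-null, with -0.83 (SE 0.25, adjusted p = 0.0326). Of the 24 calls, 22 were lost without VDRgem 1, 10 without VDRgem 2 and all 24 with the keratinocyte level as a covariate. Calls over all genes fell as well, from 10.6% higher and 8.18% lower to 1.77% and 0.623% without VDRgem 1, and to 1 and 11 genes of 17837 with that covariate. The count was 2 without VDRgem 1, 14 without VDRgem 2, 42 without VDRgem 3 and 38 without VDR-null 3. It was 15 with the GC offset, 11 higher and 4 lower. No mitochondrial member was called in edgeR, where 1 had an unadjusted p under 0.05, and DESeq2 called 1, mt-Nd6.

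The split between higher and lower members depended on the scaling in comparisons with VDRgem. Scaling by library totals shifted the median of all genes in VDRgem against control to -0.17, and 1 nuclear member was then higher (0.935%, against 3.30% of all genes) and 11 lower (10.3%, against 8.84%). Between the mutants it gave 16 higher (15.0%, against 7.34%) and 10 lower (9.35%, against 20.3%). The length offset gave 13 higher (12.1%, against 9.19%) and 13 lower (12.1%, against 12.8%).

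Other mitochondrial genes were read from lists of 13 regulators, 24 genes of pyruvate dehydrogenase and the tricarboxylic acid cycle, 13 carriers and 6 antioxidant genes, all tested. None of these was called in either mutant against control. Of 77 mitochondrial ribosomal protein genes tested, 0 were called in VDRgem and 3 were lower in VDR-null (3.90%, against 0.656% of all genes). Those were Mrpl2, at 27.5 ± 2.55 CPM in control and 19.2 ± 2.80 in VDR-null, Mrpl54, at 28.8 ± 3.23 and 18.9 ± 2.64, and Mrps11, at 17.4 ± 0.362 and 13.5 ± 1.35. Between the mutants 8 were higher in VDRgem (10.4%) and 5 lower (6.49%), near the 10.6% and 8.18% of all genes.

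Esrra, a nuclear receptor known to drive respiratory genes, was at 19.7 ± 2.10 CPM in control, 26.2 ± 4.29 in VDRgem and 13.4 ± 2.5 in VDR-null. Against control its log2 fold change was 0.41 (SE 0.15, adjusted p = 0.107) in VDRgem and -0.55 (SE 0.13, adjusted p = 0.0554) in VDR-null, and between the mutants it was 0.97 (SE 0.15, adjusted p = 0.00259). Gabpa, the DNA-binding part of GABP, was lower in VDRgem than in VDR-null by -0.27 (SE 0.06, adjusted p = 0.0124). Ppargc1a, a coactivator of mitochondrial biogenesis, was at 14.7 ± 2.95, 13.6 ± 6.50 and 12.7 ± 2.00 CPM, and Tfam, which packages and transcribes mitochondrial DNA, at 27.7 ± 1.07, 23.9 ± 1.01 and 27.2 ± 3.06 CPM in control, VDRgem and VDR-null, neither called. The uncoupling carrier gene Ucp2 was at 411 ± 95.1 CPM in VDRgem and 235 ± 56.4 in VDR-null, the log2 fold change being 0.81 (SE 0.23, adjusted p = 0.0286). Pdha1, the entry enzyme for pyruvate, was at 163 ± 6.18, 165 ± 2.40 and 172 ± 6.89 CPM.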

How the data were processed

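RNA was measured in 13 libraries of whole lower incisors. The labels' protocols give a stranded poly-A kit, 300 ng of input RNA and 12 cycles of PCR. The deposited values are unscaled read counts per Ensembl gene, and the submitters' processing notes name STAR 2.5.3a, HTSeq 0.6.1p1, bcl2fastq 2.20.0.422 and mm10. The annotation release, strand setting and counting mode are not given in the sources used. Of 34709 genes, 1143 had no count. No library was a copy of another (chi-square per degree of freedom 15.8 or more for every pair).

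Symbols, coordinates, transcript lengths and GC content of principal transcripts were taken from GENCODE M21 (GRCm38, mm10), and 91 genes had no symbol. The test was edgeR's quasi-likelihood test (edgeR 4.0.16, R 4.3.3), with TMM scaling, genes kept by filterByExpr at a minimum count of 10, with all 13 libraries in 1 fit, a mean per group and no covariate. Adjusted p-values are Benjamini-Hochberg over all 17837 genes tested, and a gene with one under 0.05 was called. SE is that of the log2 fold change. List levels used a prior count of 2, and GC and length offsets a spline with 5 degrees of freedom per library. Groups came from the genotype labels. The members, gene lists and promoter motifs were chosen with earlier results of these data known, so no count over them is independent support. Named genes were the mitochondrial members, tissue isoforms, up to 3 members with the smallest p and the highest member of each role, and up to 8 called members per comparison with groups apart. Members and list genes called in short counts, and neighbouring genes, were also named, after their values were seen.

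Alternatives were DESeq2 1.42.0, limma-voom (limma 3.58.1), other scalings, filters and thresholds, the submitters' selection (p under 0.05, absolute log2 fold change over 0.3), only the groups compared, GC and length offsets, keratinocyte and muscle covariates, and leaving out libraries. The fit was tested on simulated data in which 200 genes were changed. Figures used matplotlib 3.10.9 in Python 3.11.15. RefSeq promoters were matched by Ensembl ID or symbol.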

Additional observations from a re-analysis of the deposited data

Results flagged for a closer look

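A gap test for a library far from the other 4 of its group was run on named members and on the 2 sums in control and VDR-null, 102 tests in all. It marked 6, and chance marks about 1 in 20. In control 5, Atp5d was at 107 CPM against 128 to 137 CPM in the other controls, and Cox5b at 13.4 CPM against 17.5 to 19.3 CPM. In control 3, Cox6b1 was at 130 CPM against 113 to 117 CPM. In VDR-null 3, the muscle form Cox7a1 was at 3.47 CPM against 0.602 to 0.960 CPM. In VDR-null 5, Sdhb was at 69.7 CPM against 80.9 to 85.4 CPM. The summed mitochondrial members were at 8241 CPM in control 1 against 10008 to 10717 CPM.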

How the results depend on the processing

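The count of nuclear members called in VDRgem against control, 2, became 12 with library totals, 4 with the length or the GC offset, 7 with both, 0 with either covariate or without VDRgem 1 and 2, 1 at an adjusted p of 0.01, 6 by the submitters' selection, and 1 to 3 with 1 library left out. The 1 mitochondrial call became 0 with library totals, either covariate, at 0.01 or without VDRgem 1 and 2, 2 by the submitters' selection, and 0 to 1 with 1 library left out.

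In VDR-null against control the 9 nuclear calls became 30 with DESeq2 or the muscle covariate, 16 with library totals, 15 with a mean of at least 1 CPM, 18 with only the groups compared or without VDRgem 1 and 2, 5 with the length offset, 2 with the GC offset or the keratinocyte covariate, 1 with both offsets, 0 without VDR-null 1, 2 and 5, 1 at 0.01, 26 at 0.10, 27 by the submitters' selection, and 1 to 23 with 1 library left out. The 0 mitochondrial calls became 1 with DESeq2 and 3 by the submitters' selection. Over all genes, 0.678% were called higher and 0.656% lower in the main fit. These shares rose to 4.40% and 4.83% with DESeq2, 3.36% and 5.37% with the muscle covariate, and 1.82% and 2.34% with only the groups compared. They fell to 0.191% and 0.0729% with the GC offset and 0.275% and 0.28% with the keratinocyte covariate. Without VDR-null 1, 2 and 5 they were 0.0111% and 0%.

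Between the mutants the 24 nuclear calls became 9 with only the groups compared, 15 with the GC offset, 14 with both offsets, 0 with the keratinocyte covariate or without VDRgem 1 and 2, 2 without VDR-null 1, 2 and 5, 7 at 0.01, 38 at 0.10, and 2 to 42 with 1 library left out. The 0 mitochondrial calls became 1 with DESeq2, the GC offset, at 0.10 or by the submitters' selection, and 0 to 1 with 1 library left out. Called values that changed sign between the mutants were Atp5d (-0.0047), Atp5j (-0.0083) and Ndufb8 (-0.0025) with both offsets, and Ndufb8 (-0.084), Cox5b (-0.064), Ndufa7 (-0.025) and Ndufs6 (-0.020) with the keratinocyte covariate. Calls over all genes rose or fell in several of these fits too. Between the mutants they were 3.33% higher and 0.964% lower with only the groups compared. They were 6.31% and 8.68% with both offsets, and 1.41% and 2.07% without VDR-null 1, 2 and 5. In VDRgem against control, 0 of 17837 genes were called with the keratinocyte covariate, and 3 higher and 12 lower with the muscle covariate. Where 1 VDRgem library was left, its spread was taken from the other groups. The covariates also take up part of the group difference. The causes were not tested. Both offsets together, and the fit without VDR-null 1, 2 and 5, were added after the data were seen. No paired analysis was possible because the labels carry no replicate numbers that groups share. Members under 3 CPM, such as Cox16 and Cycs, rest on few reads.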
